A study of Caenorhabditis elegans with 15 samples.

Results

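In young larvae of Caenorhabditis elegans that lack LIN-35, 94 genes had array signal above a set level at a chosen probe set. No other strain of the study reached the level at that probe set. They were chosen from measured values: a probe set assigned to 1 gene had to lie at a log2 value of at least 5 in both lin-35 samples, below 5 in all 11 samples of the other strains, and on average at least 2 higher in lin-35 than in wild type. Genes of several families and single symbols were left out by name (29 genes at the same levels), which left 99 probe sets of 94 genes, of 20766 probe sets and 17118 genes with a probe set of 1 gene. The value 5 is a chosen level, not a detection call, so "on" here means at or above it. All levels of the chosen genes in lin-35 and wild type are therefore a description, without a test.

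LIN-35 is the only retinoblastoma family protein of C. elegans. With the E2F-like factor EFL-1, its partner DPL-1 and the MuvB proteins it forms the DREAM complex, which sits at promoters and keeps cell cycle genes, and in somatic cells many germline genes, at low levels. Loss of LIN-35 is known for germline traits in somatic cells, such as P granule proteins in the intestine, and for stronger RNA interference in somatic tissue.

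The lin-35 animals were strain MT3033, genotype lin-35(n745) unc-13(e1091) I, so the synaptic gene unc-13 was mutated in the same animals and the effects of the 2 mutations cannot be told apart. The other mutants were VC446 alg-1(gk214) X, RB774 zfp-1(ok554) III and BB11 rde-4(ne299) III, and the wild type was Bristol strain N2. The genes mutated in these 3 encode an Argonaute of the microRNA pathway, a PHD zinc finger protein and the partner with which Dicer binds double-stranded RNA. Eggs from bleached adults hatched overnight without food, and the larvae then fed on OP50 bacteria for 6 to 7 hours before RNA was taken at the L1 to L2 stage. There were 2 biological samples of lin-35, 3 of alg-1, 2 of zfp-1, 3 of rde-4 and 3 of wild type on 15 arrays, since replicate 2 of lin-35 and of zfp-1 were each hybridised to 2 arrays, which were averaged. The samples are whole animals, so more cells with a transcript and more of it per cell cannot be told apart.

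The lin-35 transcript itself was at 7.47 and 8.24 in the lin-35 samples and at 9.33, 9.45 and 9.62 in wild type, a change of -1.61 ± 0.25 (SE, limma adjusted p = 0.0015). The unc-13 transcript differed by -0.14 ± 0.18 (limma adjusted p = 0.74). Wild-type replicates 1 and 2 stood apart from the other samples on the second principal component, with scores of 46.1 and 49.3 against -30.9 to 21.9 for all others, and with either left out the rule found 96 or 97 genes, which included 92 and 94 of the 94. Replicates 1 and 3 of alg-1 differed over all probe sets with an SD of 0.22, a spread between those of the repeat arrays of zfp-1 (0.18) and of lin-35 (0.29), and leaving out either gave 95 or 94 genes. Applied to another strain in place of lin-35, the same levels found 2 genes in alg-1, 1 in zfp-1 and 2 in rde-4.

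The 99 probe sets had lin-35 means of 5.31 to 11.68, with a median of 7.15, against wild-type means of 1.81 to 4.66 with a median of 2.71. The difference between the lin-35 and wild-type means, one of the criteria, ran from 2.09 to 8.64 with a median of 4.25, and it depends on where the floor of the arrays lies. The lin-35 mean was at least 8 for 27 probe sets, 6 to 8 for 52 and below 6 for 20. The lower lin-35 sample lay above the highest of the 11 other samples by 0.73 to 7.84, with a median of 3.77. In 50 probe sets all other samples were below 3, and in 17 at least 1 other sample was at 4 or more. Folds are given below as a lower bound, the lin-35 mean set against the level of 5, since values below 5 may reflect background. For every chosen probe set the rule keeps the lin-35 samples above all others, so that the groups do not overlap is no result; only the distance between them varies. A value depends on the probes, so values of different genes are not compared as amounts of RNA.

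**Figure D1:**
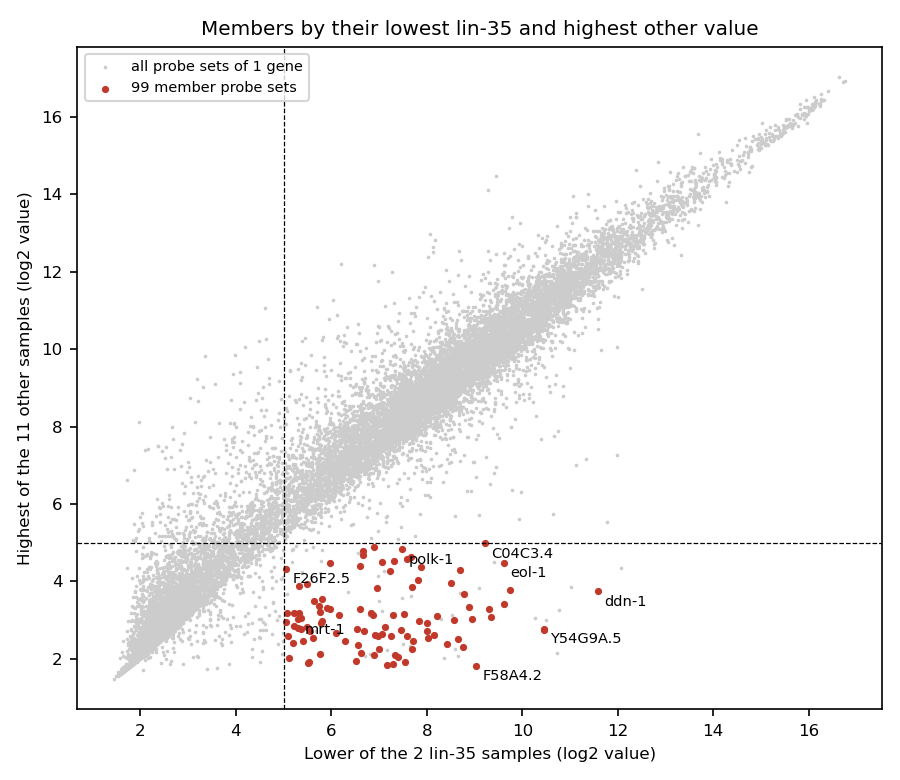
Each probe set of 1 gene is a point, with the lower of its 2 lin-35 values on the horizontal axis and the highest of the 11 other samples on the vertical axis, both log2 values. The 99 chosen probe sets (red) fill the corner right of and below the dashed lines at 5, and ddn-1 and Y54G9A.5 lie farthest right, while C04C3.4 lies at 4.98 in its highest other sample.

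The highest value was that of ddn-1 on chromosome V, a gene for which no role is given here. It had values of 11.79 and 11.58 in lin-35, 2.62 to 2.82 in the 8 samples of the other mutants, and 3.74, 2.78 and 2.62 in wild type. The lin-35 mean was at least 103-fold above the level of 5, and wild-type replicate 1 was the highest of the other samples.

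Y54G9A.5 on chromosome II had 10.46 and 10.76 in lin-35, 2.63 to 2.74 in the other mutants, and 2.73, 2.78 and 2.62 in wild type. F37D6.3 on chromosome I had 10.46 and 10.60 in lin-35, 2.72 to 2.75 in the other mutants, and 2.72, 2.74 and 2.71 in wild type. The lin-35 means lay at least 48.9-fold (Y54G9A.5) and 46.2-fold (F37D6.3) above 5, and in both genes all other samples were below 3. Y54G9A.5 also met the rule through another probe set, with 8.65 and 9.30 in lin-35.

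hpo-32, named for a screen in which its loss made animals hypersensitive to a pore-forming toxin, had 9.74 and 10.29 in lin-35, 2.41 to 3.79 in the other mutants, and 2.41, 2.48 and 2.4 in wild type. Y47G6A.25 had 9.34 and 10.43 in lin-35, 2.04 to 2.06 in the other mutants, and 2.05, 3.07 and 2.04 in wild type. The lin-35 samples of Y47G6A.25 differed by 1.09, and the highest of the other samples was wild-type replicate 2. C29A12.1, another gene found through 2 probe sets, had 9.29 and 10.04 in lin-35 against 2.97, 3.29 and 2.98 in wild type by the brighter of them.

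Among the other genes of the 20 highest probe sets, F42C5.3, C04C3.4, F58A4.2, K08F4.3, Y46G5A.20 and F46F11.7 are known only by sequence names. Their lin-35 means ran up to 9.72 (F42C5.3), and their highest values elsewhere ranged over most of the span the rule allows, with F58A4.2 at 1.83 and C04C3.4 at 4.98. C04C3.4 had 9.44 and 9.22 in lin-35, 4.04 to 4.98 in the other mutants and 4.36, 4.27 and 4.31 in wild type, so alg-1 replicate 1, its highest other sample, lay just under the level of 5.

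**Figure D2:**
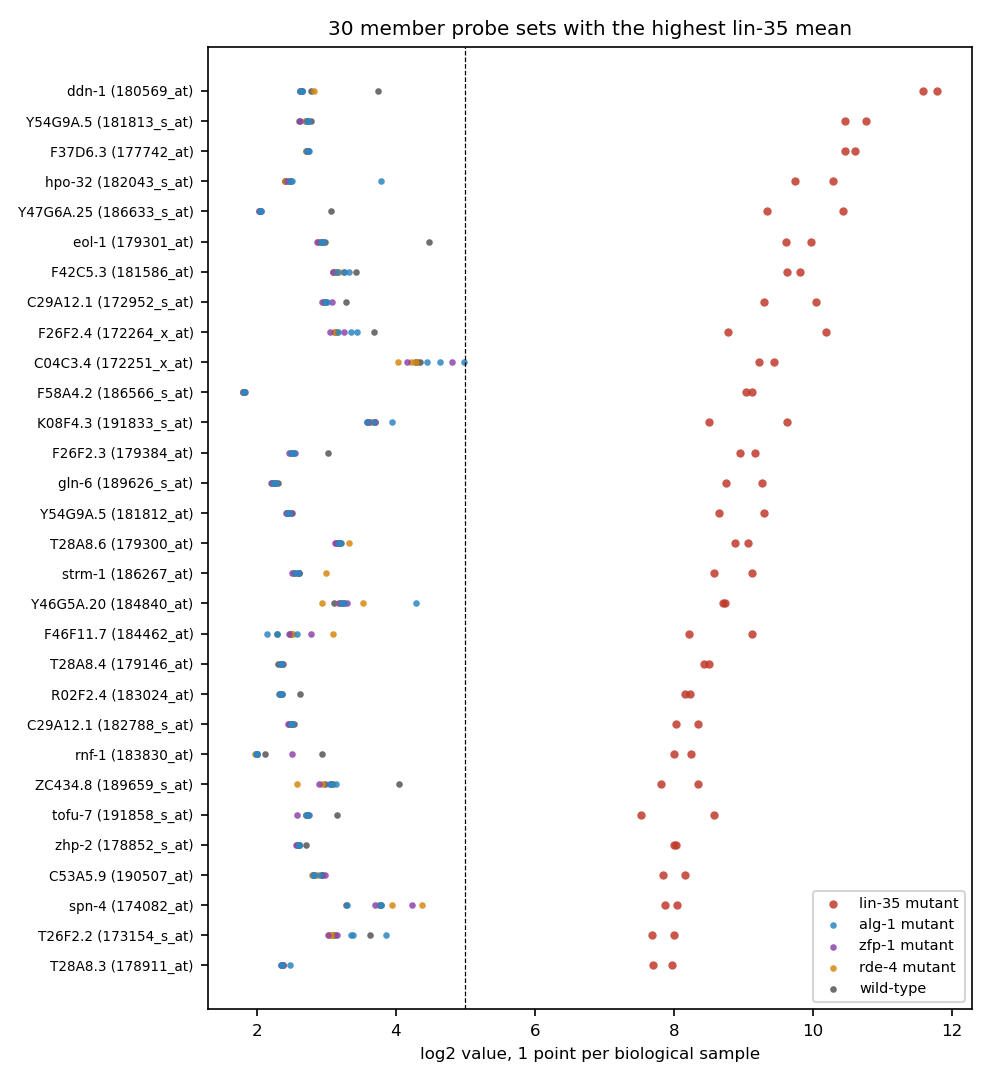
The 30 probe sets with the highest lin-35 mean, with 1 point for each biological sample on a log2 axis and the level of 5 dashed. Both lin-35 points (red) of every row lie at 7.53 or higher, while the alg-1, zfp-1, rde-4 and wild-type points lie below 5, most of them between 2 and 4.

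Sequence names without a gene name made up 51 of the 94 genes, and 43 had a gene name. By the RefSeq gene table, protein-coding genes made up 88 and pseudogenes 5 (T26F2.2, C14B1.7, ZK678.3, C25A11.10 and Y39E4B.14), and C03B8.2 was not matched. From textbook knowledge, 29 could be placed in 6 groups of roles, which were drawn up after the values were seen, and 65 were not placed. The groups only order the description and carry no count against other genes.

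One group holds genes known in C. elegans to be switched on by intracellular infection with microsporidia or the Orsay virus: eol-1, skr-4, F26F2.1, F26F2.3 and F26F2.4. Their lin-35 means ran from 6.15 to 9.80 and their wild-type means from 2.45 to 3.88. The gene eol-1 encodes a protein related to the mammalian decapping exonuclease DXO. It had 9.62 and 9.97 in lin-35, 2.87 to 2.96 in the other mutants, and 4.48, 2.99 and 2.92 in wild type. Wild-type replicate 1 was thus the highest of the samples outside lin-35, at a distance of 5.14 from the lower lin-35 sample.

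F26F2.3 had 8.95 and 9.16 in lin-35, 2.46 to 2.54 in the other mutants, and 2.51, 3.03 and 2.49 in wild type. F26F2.4 had 8.78 and 10.19 in lin-35, 3.06 to 3.45 in the other mutants, and 3.13, 3.69 and 3.14 in wild type. F26F2.1 had 5.90 and 6.40 in lin-35, 2.41 to 3.32 in the other mutants, and 2.43, 2.5 and 2.4 in wild type. The lin-35 samples differed most for F26F2.4, and its probe set is of a kind (ending _x_at) that may match several transcripts.

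skr-4 encodes a relative of Skp1, the adaptor that joins F-box proteins to cullin ubiquitin ligases. It had 7.06 and 7.23 in lin-35, 3.38 to 4.5 in the other mutants, and 3.95, 4.01 and 3.66 in wild type. Its relative skr-2, which is not among the 94, was at 10.40 in lin-35 and 5.6 in wild type (means), a change of 4.79 ± 0.35 (SE, limma adjusted p = 1.7e-06). In the list of 25 measured ubiquitin ligase adaptors other than F-box and BTB genes, 17 were tested. Without skr-4, whose call follows from the rule, skr-2 was the 1 of 16 called higher and 0 were called lower, beside 4.19% of all tested genes outside the 94 called higher.

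Another group has roles in meiosis: zhp-2, a RING finger protein of the synaptonemal complex, dsb-2, needed for the DNA breaks that start recombination, mesp-1, a meiotic spindle protein, and sws-1, of the Shu complex that assists RAD-51. zhp-2 had 8.0 and 8.04 in lin-35, 2.57 to 2.61 in the other mutants, and 2.60, 2.71 and 2.58 in wild type. The lin-35 samples of zhp-2 were closer to each other than those of most of the other genes. dsb-2 had 5.81 and 7.16 in lin-35 against 3.42, 3.55 and 3.42 in wild type by the brighter of its 2 probe sets, and 5.1 and 5.67 against 2.55, 2.60 and 2.52 by the other.

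sws-1 had 6.53 and 7.30 in lin-35, 2.64 to 2.76 in the other mutants, and 2.67, 2.71 and 2.66 in wild type. mesp-1, the lowest of all 99 probe sets by lin-35 mean, had 5.19 and 5.43 in lin-35, 2.02 to 2.42 in the other mutants, and 2.04, 2.11 and 2.03 in wild type. The lower lin-35 sample of mesp-1 and of the second dsb-2 probe set thus lay close to the level of 5.

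The next group controls RNA in germ cells and early embryos. The maternal RNA-binding protein gene spn-4 had 7.87 and 8.04 in lin-35, 3.30 to 4.38 in the other mutants, and 3.77, 3.78 and 3.29 in wild type. rnp-8, a partner of the poly(A) polymerase GLD-2, had 7.74 and 7.29 in lin-35, 1.82 to 1.86 in the other mutants, and 1.84, 1.85 and 1.84 in wild type. Outside lin-35, rnp-8 lay near the lowest values of the arrays in every sample.

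cpb-1, a CPEB-type regulator of translation, had 6.98 and 6.83 in lin-35, 2.88 to 3.02 in the other mutants, and 2.92, 3.19 and 2.90 in wild type. gla-3, a zinc finger protein that limits germ cell death, had 5.51 and 6.31 in lin-35, 1.85 to 1.88 in the other mutants, and 1.86, 1.89 and 1.85 in wild type. The highest value in another sample was 3.19 for cpb-1 and 1.89 for gla-3. Also tied to small RNAs of germ cells by name is tofu-7, from a screen for 21U-RNA factors, with 7.53 and 8.58 in lin-35 against 2.71, 3.15 and 2.72 in wild type.

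Genes for eggshell and early embryonic division formed a further group. cpg-2, an eggshell proteoglycan, had 7.69 and 7.96 in lin-35, 2.1 to 2.23 in the other mutants, and 2.24, 2.19 and 2.12 in wild type, and its other probe set gave 6.63 and 6.88 in lin-35 against 2.12, 2.13 and 2.11 in wild type. cyk-7, named for a cytokinesis defect, had 7.46 and 7.87 in lin-35 against 2.51, 2.53 and 2.34 in wild type. nop-1, needed for pseudocleavage of the one-cell embryo, lay close to the required difference from wild type, with 5.97 and 6.32 in lin-35, 4.10 to 4.48 in the other mutants and 3.69, 4.08 and 4.36 in wild type. The lower lin-35 sample of nop-1 lay 1.49 above its highest other sample.

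Genes for DNA replication, repair and telomeres had lin-35 means of 5.33 to 7.53. polk-1, the translesion DNA polymerase kappa, had 7.48 and 7.58 in lin-35, 4.42 to 4.83 in the other mutants, and 4.63, 4.74 and 4.62 in wild type. All its values outside lin-35 lay between 4 and 5. cdc-7, a kinase that starts DNA replication, had 6.61 and 7.06 in lin-35, 3.38 to 4.41 in the other mutants, and 3.61, 3.01 and 3.63 in wild type.

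The other genes of this group lay closer to 5. hpr-17, the RAD17 checkpoint clamp loader subunit, had 5.06 and 6.09 in lin-35 against 2.95, 3.17 and 2.65 in wild type. fncm-1, a relative of the Fanconi anaemia helicase FANCM, had 5.40 and 5.48 in lin-35 against 2.26, 2.32 and 2.25 in wild type. mrt-1, needed by telomerase, had 5.30 and 5.36 in lin-35 against 2.89, 3.03 and 2.89 in wild type. A level of 5.5 in place of 5 would leave out all 3.

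A last group holds 8 metabolic and redox enzymes. Glutamine synthetase appeared with gln-6 and gln-5, both on chromosome IV. gln-6 had 8.75 and 9.26 in lin-35, 2.2 to 2.27 in the other mutants, and 2.23, 2.3 and 2.22 in wild type. gln-5 had 7.01 and 7.54 in lin-35, 2.19 to 2.24 in the other mutants, and 2.23, 2.26 and 2.2 in wild type. A further probe set of gln-6 that did not meet the rule reached 5.62 and 5.41 in alg-1 replicates 1 and 3, against 9.93 and 10.38 in lin-35.

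The sterol methyltransferase gene strm-1 had 9.12 and 8.58 in lin-35, 2.51 to 3.00 in the other mutants, and 2.61, 2.61 and 2.54 in wild type. gpx-4, a glutathione peroxidase, had 7.41 and 7.76 in lin-35, 2.00 to 2.03 in the other mutants, and 2.02, 2.05 and 2.00 in wild type. gyg-2, a glycogenin that primes glycogen, had 6.87 and 8.77 in lin-35, 2.87 to 3.10 in the other mutants, and 3.09, 3.12 and 3.09 in wild type. The 2 lin-35 samples of gyg-2 differed by 1.90, the second largest gap of the 99 probe sets.

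cest-5.1, of the carboxylesterase family, had 7.59 and 7.67 in lin-35 against 4.13, 4.18 and 4.03 in wild type. bre-2, a glycosyltransferase that makes the receptor for Bt toxin, had 6.74 and 6.67 in lin-35 against 3.83, 4.79 and 3.18 in wild type. ucr-2.3, a ubiquinol-cytochrome c reductase subunit, had 5.55 and 6.35 in lin-35 against 2.71, 2.73 and 2.70 in wild type. Of these 3, bre-2 came closest to the level of 5 outside lin-35, in wild-type replicate 2.

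Among genes outside the 6 groups, try-5, a protease of male seminal fluid, had 6.28 and 5.78 in lin-35 against 2.73, 2.78 and 2.72 in wild type. sdz-6, named as a zygotic transcript that depends on SKN-1, had 6.97 and 7.24 in lin-35 against 2.52, 2.58 and 2.51 in wild type. The cyclin A family gene cya-2 had 6.68 and 6.70 in lin-35 against 2.64, 2.71 and 2.68 in wild type. None of the 3 had another sample at 3 or more.

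The median absolute difference between the 2 lin-35 populations was 0.35 over the 99 probe sets and 0.33 over all 10497 probe sets at 5 or more in both. The second population was the higher in 76 of the 99, which is 76.8%, against 55.4% of the 10497, and the median difference, second minus first, was 0.28 against 0.06. In 13 of the 99 the populations differed by more than 1, with the largest gap for F26F2.5 at 5.05 and 7.13. The 2 arrays of the second population differed by a median of 0.34 over the 99 probe sets and of 0.22 over all 10497. For the 99 the value is close to the 0.35 between the populations. The measures are unlike, since the second population enters the 0.35 as a mean of its 2 arrays. With lin-35 replicate 1 left out the rule found 110 genes, and with replicate 2 left out it found 108.

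**Figure D3:**
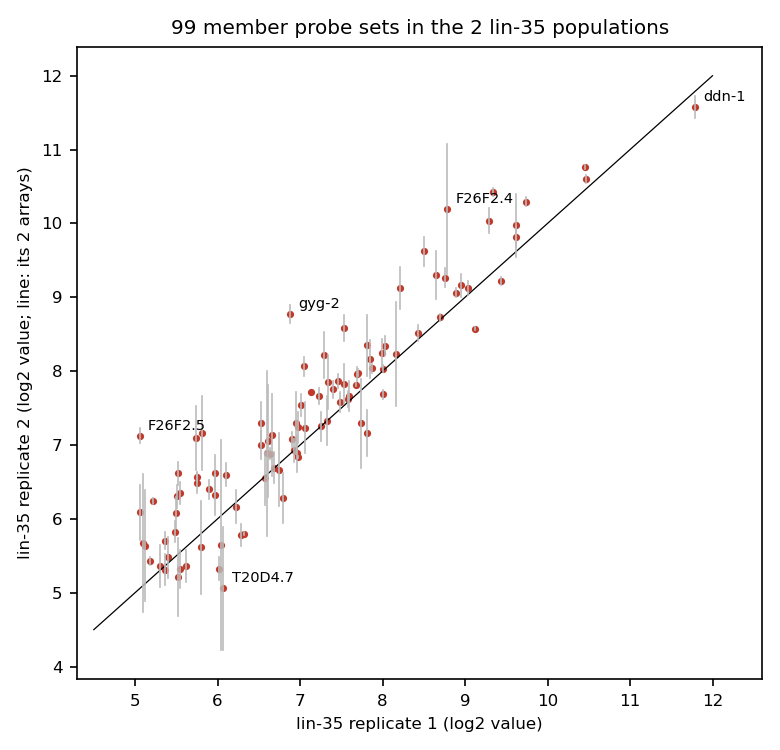
The 99 probe sets by their log2 value in lin-35 replicate 1 (horizontal) and replicate 2 (vertical), with a grey line between the 2 arrays of replicate 2 and the line of equal values in black. Most points lie close to or above the line, and gyg-2 and F26F2.5 lie farthest above it, by 1.90 and 2.07.

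Near the limits of the rule, the lowest lin-35 values that passed were 5.05 for F26F2.5 and 5.06 for T20D4.7 and hpr-17, and the nearest that did not were 4.98 for T08E11.1 and ife-5 and 4.97 for W06B4.1. The highest values outside lin-35 that passed were 4.98 for C04C3.4, 4.88 for F58F9.3 and 4.83 for polk-1. Those just over were 5.1 and 5.18 for the second probe sets of cdc-7 and spn-4 and 5.13 for sod-3. Values thus lay close together on both sides of the limits. The smallest differences from wild type that passed were 2.09 for M57.1, 2.1 for nop-1 and 2.26 for fmil-1, and just outside were F01G4.4 at 1.93, klp-10 at 1.80 and H04D03.2 at 1.62. A single criterion kept out 20 probe sets for a low lin-35 sample, 124 for another sample at 5 or more, and 7 for the difference.

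Further probe sets of the same genes did not always show the pattern. There were 13 in 12 genes, of which 6 were at 5 or more both in lin-35 and in another sample and 7 were below 5 in a lin-35 sample as well. By mean, 11 of the 13 were higher in lin-35 than in wild type, by as little as 0.007 (Y6E2A.4) and 0.07 (C17H1.2) and up to 6.11 (gln-6). The 6 include cdc-7, with 7.39 and 7.92 in lin-35 and 5.1 in rde-4 replicate 2, and polk-1, with 6.99 and 7.23 in lin-35 and 5.31 in the same rde-4 sample. For F58F9.3 the further probe set was above 5 in most samples of every strain. It read 7.77 and 8.55 in lin-35, 5.22 to 6.39 in the other mutants, and 6.95, 4.95 and 6.04 in wild type. The 7 include cpb-1, whose further probe set read 3.27 and 2.05 in lin-35. Of the chosen probe sets 30 end in _s_at and 8 in _x_at, kinds that may match several transcripts, which is 30.3% and 8.08% against 23.4% and 4.57% of all probe sets of 1 gene.

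In the limma fit over all 5 groups, 91 of the 94 genes were tested, 86 through the chosen probe set and 5 through a brighter one. In lin-35 against wild type 90 of the 91 were called higher, beside 5.19% of all 8653 genes tested called higher and 1.47% called lower. That count follows from the rule, which used the same values, and nothing is read from it. The exception was fmil-1, where a brighter probe set was tested, with a change of 0.89. The other 3 genes (Y71G12A.4, Y6E2A.4 and C17H1.2) did not enter, because a probe set that is below 5 in lin-35 too stood for the gene.

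The other mutants were compared with wild type for the same genes, all of which lie below 5 in both by the rule at the chosen probe set. The 86 tested through the chosen probe set entered the test only because of the 2 lin-35 samples, so few calls can be had in these contrasts and nothing is read from the counts. By limma at an adjusted p of 0.05, 0 of 91 were called in either direction in alg-1, zfp-1 or rde-4. The background was 1.07% of 8653 genes called higher and 2.06% lower in alg-1, 1.27% and 2.92% in zfp-1, and 6.38% and 4.73% in rde-4. At an unadjusted p under 0.05 the counts were 4, 1 and 1 of the 91 genes, beside 18.3%, 22% and 29.3% of all genes. The median change of the 91 genes was 0.00 in alg-1, -0.02 in zfp-1 and -0.02 in rde-4, with single genes between -1.05 and 0.92. These 3 comparisons share the wild-type samples, and a change of a transcript may not be measurable at values this low.

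The position of the genes on the chromosomes was not used by the rule. Of the 93 genes placed through the RefSeq table, 20 were on chromosome I, 11 on II, 19 on III, 16 on IV, 24 on V and 3 on X. Chromosome X held 3.23% of them (ZK678.3, C25A11.10 and F08F1.9) against 13.8% of all genes with a probe set. Chromosome I held 21.5% against 14.5% of all genes, chromosome II 11.8% against 17.7%, chromosome III 20.4% against 13.2%, chromosome IV 17.2% against 15.6% and chromosome V 25.8% against 25.28%. Families left out by name could not be among the chosen genes but still count in the shares of all genes. How far this moves the differences between the shares was not tested. These shares are descriptions with no test, and neighbouring genes are not independent of each other.

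With at most 3 genes between one and the next, 17 of the genes lay in 7 runs. The longest was on chromosome V with F26F2.1, F26F2.3, F26F2.4 and F26F2.5, whose lin-35 means were 6.15, 9.05, 9.49 and 6.09 against 2.45, 2.68, 3.32 and 3.32 in wild type. The genes on either side that were measured, abf-4 and clec-263, were at 3.03 and 2.08 in lin-35 and 2.93 and 2.14 in wild type. Beyond the ends of the run the lin-35 levels thus lay close to those of wild type. F26F2.4 and F26F2.5 were read by probe sets ending _x_at, so their signals may not be separate.

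On chromosome III, T28A8.6, T28A8.4 and T28A8.3 had lin-35 means of 8.98, 8.47 and 7.84 against 3.19, 2.34 and 2.37 in wild type. No role is given here for these 3 genes. Their measured neighbours T28A8.2, with 2.24 in lin-35 and 2.3 in wild type, and mlh-1, a mismatch repair gene, with 8.08 in lin-35 and 8.33 in wild type, differed by -0.06 and -0.25 (for mlh-1, limma adjusted p = 0.63; T28A8.2 was too low to be tested). On chromosome V, eol-1 lay beside the pseudogene T26F2.2, which had 8.01 and 7.68 in lin-35 against 3.12, 3.63 and 3.09 in wild type, and the next gene end-1, an endoderm factor, was at 6.07 in lin-35 and 6.13 in wild type.

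The run on chromosome I held Y47G6A.3 and Y47G6A.25, with the kinetochore gene mis-12 between them. Beside Y47G6A.25 lie the gap junction genes inx-22 and inx-21, which met the same levels and were left out by name, with lin-35 means of 10.79 and 8.70 against 2.13 and 2.01 in wild type. The second run on chromosome III held bre-2 and Y39E4B.14, and beyond Y39E4B.14 lay snpc-1.2 and Y39E4B.5. Y39E4B.5 was at 9.84 in lin-35 and 3.53 in wild type, but reached 6.35 in another sample and so did not meet the rule. The last runs, both on chromosome V, were Y6E2A.4 with Y6E2A.5 and sdz-6 with C43D7.4.

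**Figure D4:**
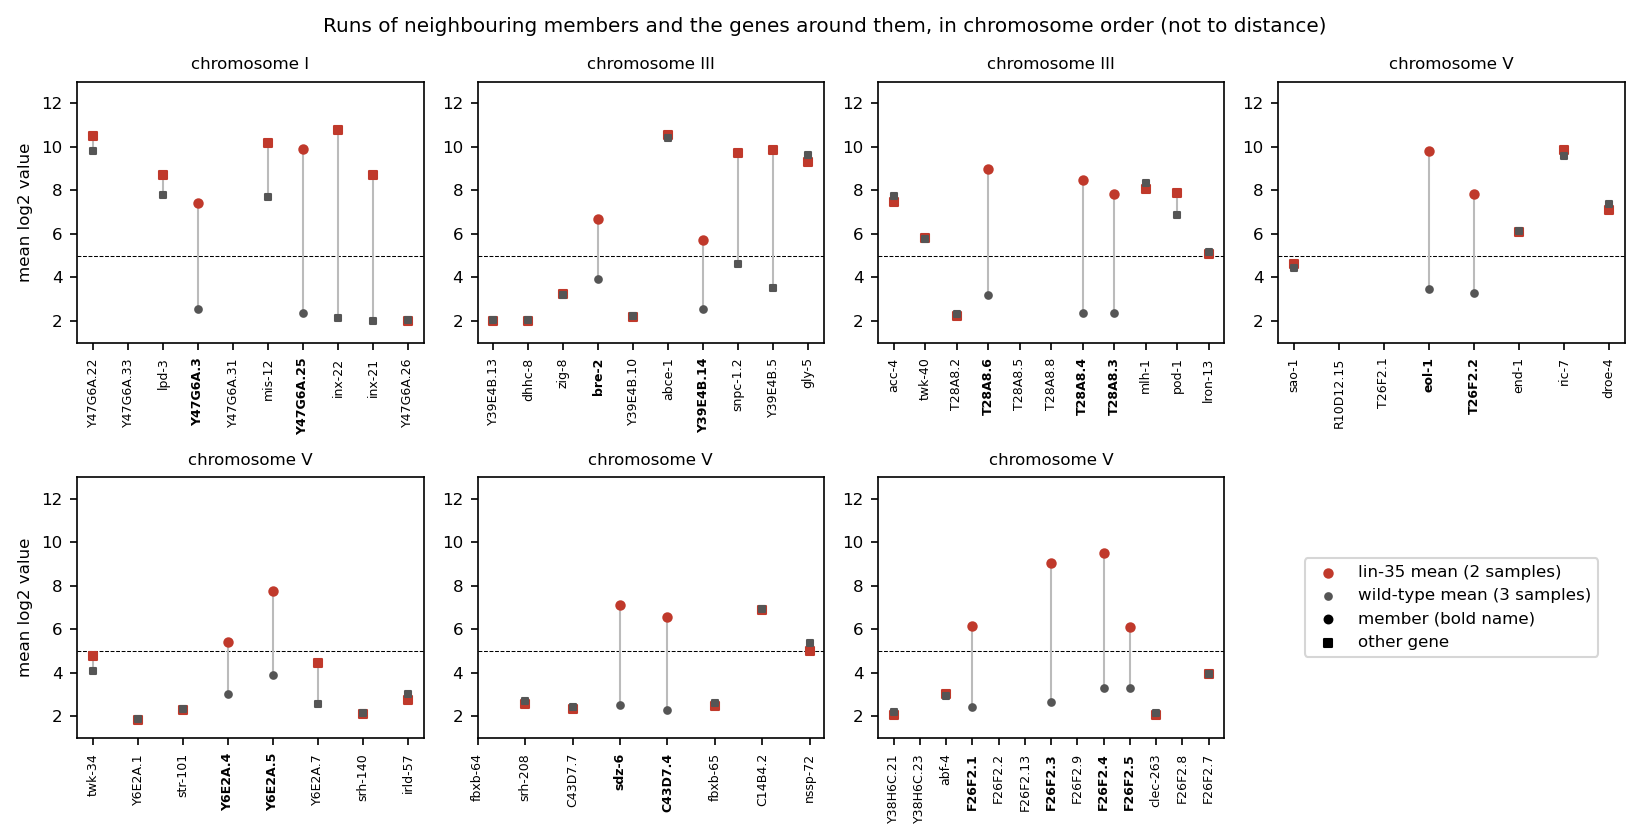
Mean log2 value of each gene in the 7 runs and of 3 genes on each side, in the order of the chromosome and not to distance, with lin-35 means (2 samples) in red, wild-type means (3 samples) in grey, circles for the chosen genes (bold names) and squares for others. Grey lines join the 2 means of a gene; they are long for the chosen genes and for inx-22, inx-21, snpc-1.2 and Y39E4B.5, and short for most genes at the ends of the runs.

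The nearest protein-coding gene on each side was looked up for all 93 placed genes, which gave 185 different neighbours. Of these, 10 were themselves among the 94, 2 had been left out by name at the same levels, 61 were below the filter, 29 had no probe set of 1 gene and 83 were tested. Of the 83, limma called 9 higher in lin-35, which is 10.8%, beside 4.19% of all tested genes that are not among the 94, and 1 lower, which is 1.2%. The median change of the 83 was 0.16, against 0.01 over all genes. The count was 7 of 77 when neighbours of genes in runs were left out, and 7 and 6 without lin-35 replicate 1 or 2.

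The largest change among the neighbours was that of lotr-1, beside zhp-2, a germ granule protein with Tudor and LOTUS domains. It had 11.78 and 12.34 in lin-35 against 4.52, 4.68 and 4.65 in wild type, a change of 7.44 ± 0.27 (SE, limma adjusted p = 1.5e-09). snpc-1.2, beside Y39E4B.14 and related to a subunit of the small nuclear RNA activating complex, had 9.31 and 10.10 in lin-35 against 4.99, 4.45 and 4.36 in wild type (5.11 ± 0.34, limma adjusted p = 6.9e-07). Neither gene reached 5 in wild type, but lotr-1 was at 5.53 in alg-1 replicate 1 and snpc-1.2 at up to 6.53 in the other mutants, so they did not meet the rule.

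Genes of DNA replication and chromosome segregation also lay next to chosen genes. mus-101, a replication and checkpoint protein beside F37D6.3, had 10.02 and 10.33 in lin-35 against 8.17, 8.21 and 8.48 in wild type (1.89 ± 0.21, limma adjusted p = 0.0001). mis-12 had 9.76 and 10.57 in lin-35 against 7.51, 7.63 and 7.94 in wild type (2.47 ± 0.26, limma adjusted p = 5e-05). lig-1, a DNA ligase beside C29A12.1, had 9.85 and 10.13 in lin-35 against 8.28, 8.90 and 8.44 in wild type (1.45 ± 0.29, limma adjusted p = 0.0084). All 3 were well above 5 in every sample, and their lin-35 values lay above all wild-type values.

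The other neighbours called higher were C06E4.8, ZC196.5, CC8.2 and F58F9.4, with changes of 2.71, 2.49, 2.1 and 1.24. CC8.2 was at 9.39 and 8.58 in lin-35 and at 6.76, 7.17 and 6.72 in wild type. Most samples of the other mutants, at 6.88 to 8.42, also lay above wild type for this gene. The one called lower was noah-1, an extracellular matrix protein of the cuticle beside cdc-7, with 7.19 and 6.56 in lin-35 against 8.84, 9.32 and 8.64 in wild type (-2.06 ± 0.55, limma adjusted p = 0.046). The call for noah-1 was lost under 11 of the alternative settings.

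Lists of other germline and cell cycle genes were examined in the same contrast, without a set test. A gene below 5 elsewhere enters the test only if it is at 5 or more in lin-35 or another group, so counts among tested genes are partly conditioned on lin-35. Calls of genes among the 94 follow from the rule and are left out of the counts. Of all tested genes outside the 94, 4.19% were called higher, and of all tested genes 1.47% were called lower; each count below is to be read against these shares. The germline translational control list had 37 measured genes, of which 22 were below 5 in all samples and 14 were tested. Apart from rnp-8, cpb-1 and spn-4 of the 94, limma called 0 of 11 in either direction, with 2 at an unadjusted p under 0.05. The oocyte, eggshell and early embryo list had 28 measured genes, 14 below 5 in all samples and 13 tested, and apart from cpg-2 limma called 0 of 12, with 3 at an unadjusted p under 0.05. Of 46 measured genes of the sperm list 40 were below 5 in all samples. Apart from try-5, 1 of 4 tested was called higher, the importin alpha gene ima-2 (1.13 ± 0.24, limma adjusted p = 0.013). Unlike most of the list, ima-2 was high in wild type too, with a mean of 9.67, so its call is not read as one of sperm. Most translational control and sperm genes, and 14 of the 28 oocyte genes, thus stayed below 5 in lin-35 as elsewhere.

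Of the meiotic recombination and pairing list, with 40 measured genes, 18 were below 5 in all samples and 21 were tested. Apart from zhp-2 and dsb-2 of the 94, 5 of 19 were called higher and 0 lower. These were rad-51, the recombinase, with 10.07 in lin-35 and 8.0 in wild type (2.06 ± 0.29, limma adjusted p = 0.00064), exo-1 (1.85), rmh-2 (2.1), pch-2 (1.36) and rad-54.L (0.69). The median change of the 21, zhp-2 and dsb-2 included, was 0.38, beside 0.01 over all genes. Apart from rmh-2 these genes called higher had wild-type means above 5. The call of rad-54.L was lost under 13 alternative settings. The cohesin gene coh-3, at 5.42 and 4.51 in lin-35 and 2.51 in wild type (mean), reached 5 in too few samples to be tested.

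In the kinetochore and spindle list, 20 of 35 tested genes were called higher and 0 lower, beside 4.19% and 1.47% over the array, with a median change of 1.23. Examples are mdf-2, a spindle checkpoint protein, with 10.19 in lin-35 and 7.46 in wild type (2.73 ± 0.31, limma adjusted p = 0.00012), knl-3 (2.52), kbp-3 (2.27) and hcp-6 (2.29). In the list of DNA repair and damage response 11 of 36 tested genes outside the 94 were called higher and 0 lower, and the median of all 38 tested was 0.59. They include polh-1, a translesion polymerase, with 9.96 in lin-35 and 6.31 in wild type (3.65 ± 0.38, limma adjusted p = 4.3e-05), and exo-3 (3.53), while mrt-1 and fncm-1 of the 94 were not counted. None of the tested kinetochore genes was among the 94, since all 35 were at 5 or more in all wild-type samples.

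Fewer genes were called in the remaining lists. Among germ granule genes other than pgl and glh, 2 of 14 tested were called higher (ekl-1 and mut-7, calls lost under 6 and 15 alternative settings) and 0 lower. In the piRNA list 1 of 8 was called higher, tofu-2, with a change of 3.20 ± 0.19 (SE, limma adjusted p = 2.4e-07), and 0 lower. Of germline chromatin and transcription genes 5 of 21 were called higher and 0 lower, among them the partners of LIN-35, dpl-1 (2.37) and efl-1 (1.76). Most tested genes of these 3 lists were not called. Of germline signalling and proliferation genes 5 of 14 were called higher, among them the Notch receptor glp-1 (1.95), and 1 lower, cdc-25.2 (-2.11). Of RNA interference factors 4 of 25 were called higher and 0 lower, among them rde-4 (1.20), the Argonaute gene vsra-1 (1.94) and rrf-2 (2.37).

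Markers of cell types moved with the contrast in germ cells only in part. Of 11 germ cell markers 5 were tested and 3 were called higher: pgl-1, with 12.08 and 12.09 in lin-35 against 3.12, 3.21 and 3.11 in wild type, pgl-3 and glh-1. Also tested but not called were mes-3 (-0.35 ± 0.21, limma adjusted p = 0.39) and prg-1 (-0.90 ± 0.47, limma adjusted p = 0.32), both lower in lin-35 by mean. The other 6 (glh-2, glh-4, nos-1, nos-2, deps-1 and gld-1) were below 5 in every sample, lin-35 included. The summed linear level of the 11 was 10521 to 14669 in lin-35, 555 to 920 in alg-1, 725 to 790 in zfp-1, 825 to 1149 in rde-4, and in wild type 541 to 718. A sum of linear levels follows its brightest genes, so it does not stand for each of the 11. The part of germ cell number in the levels of the 94 genes was not tested.

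Sperm markers and most oocyte and embryo markers were low in every sample. All 9 sperm markers were below 5 in every sample, with summed levels of 51.7 to 57 in lin-35 and 55.6 to 68.1 in wild type. Of 9 oocyte and embryo markers 7 were below 5 in every sample, and the summed level was 429 to 445 in lin-35 and 214 to 304 in wild type, where cpg-2, one of the 94, is itself on the list. The lin-35 sums lay above those of all other samples. The marker cpg-1, which was not called, was at 7.37 in lin-35 and 7.65 in wild type (means). The yolk genes measured, which are markers of the adult intestine and not of germ cells, summed to 35.1 to 37.2 in lin-35 and 40.4 to 59.8 in wild type.

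None of the markers of larval intestine, body wall muscle, pharynx, hypodermis and seam, neuron and somatic gonad was called by limma in lin-35 against wild type (0 of 42 tested, beside 5.19% of all genes called higher and 1.47% lower). At an unadjusted p under 0.05 there were 7 of the 42, which is 16.7%, beside 20.4% of all genes. The summed level of 10 larval intestine markers was 94698 to 97381 in lin-35 and 75221 to 83328 in wild type. That of 7 somatic gonad markers was 775 to 799 in lin-35 and 922 to 1556 in wild type. That of 7 pharynx markers was 2033 to 2251 in lin-35 and 2714 to 5945 in wild type, and the median change of the 5 that were tested, -0.87, was the largest in size of the 6 lists. In these 3 lists the lin-35 samples lay outside the range of wild type, although no single gene passed the test. For somatic gonad and pharynx they lay within the range of rde-4, which was 753 to 2188 and 1221 to 4586. For larval intestine they lay above all other samples, of which the highest was 86166 in alg-1.

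**Figure D5:**
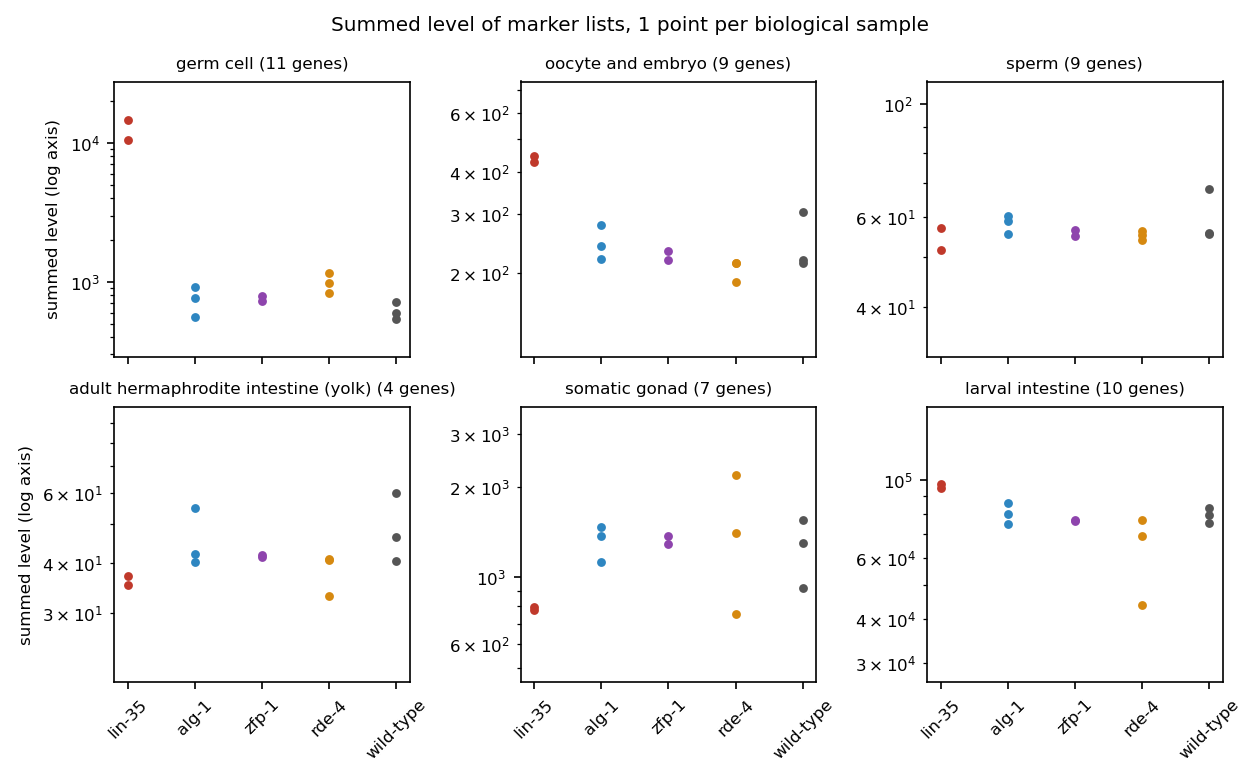
Summed linear level of 6 marker lists, with 1 point for each biological sample on a log axis whose range differs between panels, and with lin-35 left and wild type right. The lin-35 samples lie at 10521 and 14669 for the germ cell list, more than any other sample, and within or near the range of the others for the sperm and yolk lists.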

How the data were processed

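Total RNA of whole larvae was labelled with biotin and hybridised to Affymetrix arrays. The deposited values are log2 intensities that the authors made with GCRMA, per the submitters' processing notes (version not given in the sources used here). GCRMA subtracts a background predicted from probe sequence, equalises the arrays and gives 1 value per probe set, so low values gather near a floor. Read depth does not apply to arrays, and precision is limited by how many there are. No genome build is named, so no coordinates are given, and promoter and protein sequences are not analysed here.

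Of 22625 probe sets, 77 controls were left out, and 887 with several genes and 895 not listed in the platform annotation were set aside. Arrays of 1 biological sample were averaged. The labels describe replicates as separate populations. The rule for the 94 genes was applied to these values. For tests, each gene was read by its probe set of highest mean, and 8653 genes at 5 or more in at least 2 of 13 samples were fitted with limma 3.58.1 in R 4.3.3 (5 groups in one fit, 8 residual and 3.49 prior degrees of freedom, two-sided, Benjamini-Hochberg adjustment within a contrast, threshold 0.05). Levels are log2 values, and log2 values of different probe sets are not compared as amounts of RNA. On simulated data for lin-35 against wild type (8653 genes) the fit recovered 39% of log2 changes of 1 and 90% of log2 changes of 2, with 5 false calls. The simulation used independent noise and changed no group but lin-35. It leaves out deviations that real samples share, so these rates may not hold for the real data. Neighbours and chromosomes came from the RefSeq gene table of C. elegans.

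The genes, the 12 function lists, the 10 marker lists and the tests were chosen with earlier results of these data known; 40 listed names were not matched. Named are the 20 highest probe sets, genes on a list or beside another of the 94, genes at the limits of the rule, neighbours that passed, up to 4 genes a list with the smallest adjusted p, and the mutated genes; other genes were named after their values were seen. Alternatives covered normalisation, the levels and filters, repeat arrays, fits of 2 groups, the replicate number as a block, all probe sets and the omission of each sample.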

Additional observations from a re-analysis of the deposited data

Results flagged for a closer look

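Among probe sets that were not used because the annotation gives them several genes, 8 of 887 met the same levels as the chosen genes, at 5 or more in both lin-35 samples and below 5 in all others. The 895 probe sets with no listed gene held 0 such cases. The 2 highest of the 8 had lin-35 means of 7.99 and 7.95 against 2.68 and 2.75 in wild type. They are not assigned to a gene here.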

How the results depend on the processing

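The rule found 94 genes, and 76 to 100 under 10 alternatives, among them a level of 6 (77 genes, 65 of the 94) and a rule that every probe set of a gene must meet (82, added after the data were seen). Without probe sets ending _s_at or _x_at, also added later, 60 genes were left. Leaving out 1 sample gave 94 to 110 genes.

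Over all genes 449 were called higher and 127 lower, so 78% of calls were higher. Quantile normalisation gave 375 higher and 220 lower (63%) and subtraction of array medians gave 346 and 218 (61.3%), with the median change of all genes moved from 0.01 to -0.12 and -0.15. Requiring 5 in 3 samples, which removes genes on in the 2 lin-35 samples alone, gave 293 higher. A fit of lin-35 and wild type alone gave 273 and 37. Where a lin-35 sample was left out, the filter was applied again, so genes at 5 or more in lin-35 alone left the test. This left 8514 genes tested without lin-35 replicate 1 and 8523 without replicate 2, against 8653 in the main fit. The counts over all genes from these fits thus mix the filter with the loss of a sample. With 1 sample left out the counts were 126 to 624 higher and 29 to 177 lower; without lin-35 replicate 1 they were 174 and 29, without replicate 2 they were 126 and 57 (the lone sample is then assumed to vary like the other groups), and without wild-type replicate 2 there were 52 lower. Neighbours called higher numbered 9, 14 with no filter on low values, and 6 to 10 with 1 sample left out. Of 23 same-numbered pairs of samples 14 deviated together with a correlation above 0.1 (-0.27 to 0.38 over all, 0.15 to 0.38 in the 8 pairs with a lin-35 sample); as not every pair did and the labels name no shared batch, the numbers were not taken to pair the samples. The replicate number as a block gave 528 higher, 160 lower and 10 neighbours. Of 755 values of 36 named genes under these alternatives 671 kept their call, 84 lost it and 0 changed sign; mut-7, met-2, rad-54.L and noah-1 lost it most often (15, 13, 13 and 11 alternatives). Apart from the filter of 5 in 3 samples and the omitted lin-35 samples, the cause was not tested. Promoter motifs and neighbours on the same strand were not run. Values near the floor of the arrays limit what can be said of levels outside lin-35.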
